A study of Mus musculus with 4 samples.

Results

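Transcripts of 10 integrin subunits were followed in 4 libraries of MMTV-Myc cells, mouse mammary tumour cells whose Myc transgene is driven by the mouse mammary tumour virus (MMTV) promoter. The members were fixed by name: the alpha subunits Itga2, Itga3, Itga5, Itga6 and Itgav and the beta subunits Itgb1, Itgb3, Itgb4, Itgb5 and Itgb6. Each was read from the row of a deposited table whose gene column holds its symbol, and each symbol had a single row. All 10 had a row among the 22440 of the bulk and mammosphere table, and 8 had a row among the 11708 of the knockdown table, which lists neither Itgb4 nor Itgb6.

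The bulk library came from day 0 cells grown in medium with 2% serum and 10 µg/ml insulin, and the mammosphere library from cells kept until day 20 on low attachment plates with 20 ng/ml EGF, 20 ng/ml bFGF and Gem21 supplement, dissociated with trypsin every 4 days. The other libraries came from cells infected with a pLKO.1 lentivirus and kept under 2 µg/ml puromycin, with either a control short hairpin RNA (shRNA) or the Cbx8 shRNA named sh68. All carry the Myc transgene, and bulk, mammosphere and control cells are called wild type in the labels. One label names the control hairpin scrambled and another shLuc, and no source used here says whether the shRNA cells were cultured attached or as spheres. Each group was 1 library and the knockdown used 1 hairpin. Every difference below therefore describes a pair of libraries, with no replicate spread and no test run here. The q values quoted from the authors were made from the same single libraries, so they measure no spread between cultures.

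Integrins are membrane receptors made of 1 alpha and 1 beta chain, which bind extracellular matrix outside the cell and, through talin, kindlin and other adaptors, actin or keratin filaments inside it. The pairing sets the ligand: Itgb1 with Itga5 binds fibronectin, Itgb1 with Itga3 or Itga6 binds laminins, Itgb1 with Itga2 binds collagens, Itgb4 pairs only with Itga6 in hemidesmosomes, and Itgav pairs with several beta chains to bind RGD-containing proteins such as vitronectin and latent TGF-beta. In the mammary gland, Itgb1 (CD29), Itga6 (CD49f) and Itgb3 (CD61) serve as surface markers in sorting stem and progenitor populations.

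Cbx8, the target of the hairpin, was at 4.74 FPKM with the control hairpin against 1.23 FPKM with sh68, and at 3.46 FPKM in bulk and 1.48 FPKM in mammospheres. FPKM scales fragments to transcript length and library size, so it allows levels of different genes to be compared within a library. The tables were normalized separately and share no library, and levels are therefore not compared between them. Fold changes are log2 ratios with 1 FPKM added to each value, which understates the change of low genes. A gene was measured where it reached 1 FPKM in either library and the authors' status was OK or not tested. Over 11603 measured rows, the median log2 change from bulk to mammospheres was −0.24, and it was −0.006 over 10685 rows in the knockdown comparison. Markers of other cell types differed between bulk cells and mammospheres. These libraries also differ in medium, day and passage, which cannot be told apart from growth form. The summed level of 12 fibroblast markers was 416 FPKM in bulk against 1.09 in mammospheres, with Lum, Thy1, Postn and Dpt listed at 0 there. That of 15 leukocyte markers was 473 and 109 FPKM, of which Cd68, a lysosomal protein, held 101 FPKM in mammospheres, with Tyrobp, Cd3e, Fcer1g and Cd48 listed at 0. That of 6 endothelial markers was 6.73 and 0.24 FPKM. The part of other cells in the integrin results was not tested, and fewer cells of a type cannot be told apart from less RNA per cell. Between the shRNA libraries, 3 of 15 leukocyte, 4 of 12 fibroblast and 0 of 6 endothelial markers had a row at all. Of 9 epithelial markers, 7 were measured in the mammosphere table. Of these, 5 were 2-fold lower and 0 higher, beside 17.3% and 3.54% of all measured rows. The summed level of the 9 was 934 FPKM in bulk against 74.1 in mammospheres. The luminal keratins Krt8 and Krt18 were at 334 and 570 FPKM in bulk against 5.14 and 58.2 in mammospheres, whereas Krt19 was at 9.08 and 9.65. The defining markers Epcam (1.06 and 0.0908 FPKM) and Cdh1, E-cadherin (1.04 and 0.0135), were low in both. Of the 9 epithelial markers, 8 had a row in the knockdown table, with sums of 439 and 434 FPKM. Of these, 5 were measured and 0 were 2-fold different, beside 0.449% lower and 0.299% higher among all measured rows. Krt19 was at 90.1 and 72.3 FPKM there, Krt8 at 63.2 and 79.3, Krt18 at 261 and 256 and Cldn3 at 22.8 and 24.9, with Epcam at 0.338 and 0.0427 and Cdh1 at 0.283 and 0.206. Of 8 basal markers, 3 were measured in the mammosphere table and all 3 were 2-fold lower, beside 17.3% of all measured rows. They were the basal keratins Krt14 (18.8 and 0.0534 FPKM) and Krt17 (1.46 and 0.0316) and the smooth muscle actin Acta2 (29.0 and 6.33). The list sums were 51.7 and 6.78 FPKM. Of the 8, 2 had a row in the knockdown table, and Krt14 was at 1.09 FPKM under the control hairpin and 10.5 under sh68 (log2 change 2.46), for which the authors' deposited table gives q = 0.0325. The part of basal cells in either integrin comparison was not tested.

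From bulk cells to mammospheres the subunits did not move as one. The fibronectin receptor chain Itga5 and the vitronectin receptor chain Itgb5 were 4.23-fold and 5.71-fold lower as plain ratios, and the common beta chain Itgb1 was 2.05-fold lower. The laminin receptor chains Itga3 and Itga6, the collagen receptor chain Itga2 and Itgav were within 1.5-fold of bulk, and Itgb3 was 1.92-fold higher. Of 9 measured members, 4 were lower by 2-fold or more with 1 FPKM added (Itga5, Itgb1, Itgb4 and Itgb5), 0 were 2-fold higher and 5 were neither, with a median of −0.14. Among all measured rows 17.3% were 2-fold lower and 3.54% were 2-fold higher. Itgb6 did not reach 1 FPKM. With changes centred on the median plain log2 ratio (−0.21, over the 10146 rows at 1 FPKM or more in both libraries), 2 members were lower (Itga5 and Itgb5, against 13.0% of rows) and 1 higher (Itgb3, against 5.98%). With upper quartiles set equal, 3 were lower (13.5% of rows) and 1 higher (7.08%).

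**Figure D1:**
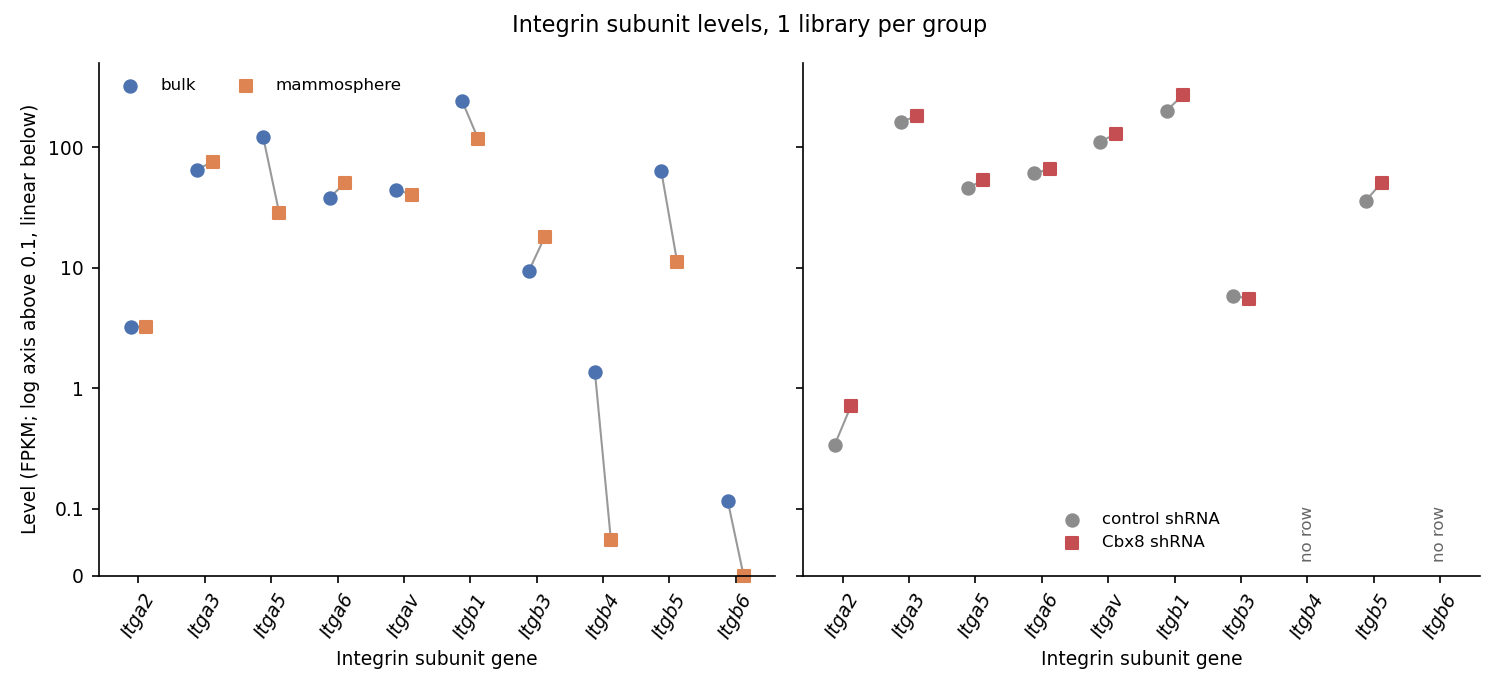
Level of each integrin subunit in each library in FPKM, on an axis that is logarithmic above 0.1 and linear below. Circles are the bulk or control library and squares the mammosphere or Cbx8 shRNA library, each symbol being 1 library, and lines join a gene within its table. Itga5 and Itgb5 stand lower in mammospheres (28.6 and 11.0 FPKM) than in bulk cells (121 and 63.1 FPKM), whereas Itga3 and Itga6 stand slightly higher.

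The upstream sequences of the 3 members that passed 2-fold with a RefSeq promoter window, Itga5, Itgb5 and Itgb1, are shown because these chains were at least 2-fold lower in mammospheres. RefSeq windows (GRCm38.p6) were found for 7 of the 10 members, and Itga6, Itgb3 and Itgb4 were not matched. Each line gives the 250 bases before the annotated start, 5′ to 3′ on the gene's strand, with capitals marking matches on either strand to GGGCGG, the core of Sp1 family sites, or GGAATG, the core of TEAD sites. Itga5 lies on the minus strand (chr15:103366792-103367041), and Itgb5 (chr16:33829415-33829664) and Itgb1 (chr8:128685404-128685653) on the plus strand. No GENCODE M21 exon overlaps these 3 stretches.
Itga5: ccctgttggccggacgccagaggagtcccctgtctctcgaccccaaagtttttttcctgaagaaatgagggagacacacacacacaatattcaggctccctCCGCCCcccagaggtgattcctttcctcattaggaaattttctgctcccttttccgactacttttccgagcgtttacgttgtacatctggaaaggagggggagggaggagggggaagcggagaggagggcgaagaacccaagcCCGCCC
Itgb5: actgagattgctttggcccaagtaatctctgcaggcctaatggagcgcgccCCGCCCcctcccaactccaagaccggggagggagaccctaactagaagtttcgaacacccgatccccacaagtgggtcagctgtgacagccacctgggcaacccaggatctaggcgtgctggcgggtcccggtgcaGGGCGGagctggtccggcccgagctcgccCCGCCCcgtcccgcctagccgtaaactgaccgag
Itgb1: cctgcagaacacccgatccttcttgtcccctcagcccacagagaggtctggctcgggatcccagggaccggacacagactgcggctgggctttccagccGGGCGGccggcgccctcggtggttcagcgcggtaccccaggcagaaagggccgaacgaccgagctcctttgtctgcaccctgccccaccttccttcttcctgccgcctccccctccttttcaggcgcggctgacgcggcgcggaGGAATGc

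The GGGCGG core occurred in all 3, at 149 to 144 and 6 to 1 bases before the start in Itga5, at 199 to 194, 63 to 58 and 34 to 29 bases in Itgb5, and at 151 to 146 bases in Itgb1. It also occurred upstream of Itga3, which was not lower in mammospheres, and in 32.7% of the 32851 RefSeq windows of this length. GGAATG was present only in Itgb1 among the 7 matched members, 7 to 2 bases before the start, and in 12.6% of windows. Within these 250 bases the AP-1 letters TGANTCA (6.75% of windows) and the E-box CACGTG (6.02%) were in none of the 7 matched members. The CArG box, bound by serum response factor (1.47%), was in 1 of 2 windows of Itgb6 and in no other matched member. These matches depend on the stretch read. Over the whole RefSeq window, which runs past the start, TGANTCA was also in Itga3 (7.81% of windows). GGGCGG was there also in Itga2 and Itgav (35.7% of windows), neither of which was 2-fold lower in mammospheres. A match describes letters in a window and not a bound site.

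Itga5 (mm9 chromosome 15, 103174717 to 103197179) encodes the alpha chain of the classical fibronectin receptor. It was at 121 FPKM in bulk cells against 28.6 FPKM in mammospheres, a log2 change of −2.04, and the authors' deposited table gives q = 0.00484. Of all measured rows, 5.33% had a change as low or lower. Between hairpins Itga5 was at 45.8 FPKM in the control and 53.4 FPKM with the Cbx8 hairpin (log2 change 0.22). From highest to lowest, the members of the bulk library were Itgb1, Itga5, Itga3, Itgb5, Itgav, Itga6, Itgb3, Itga2, Itgb4 and Itgb6. In mammospheres the order was Itgb1, Itga3, Itga6, Itgav, Itga5, Itgb3, Itgb5, Itga2 and Itgb4, with Itgb6 at 0. Both shRNA libraries had the order Itgb1, Itga3, Itgav, Itga6, Itga5, Itgb5, Itgb3 and Itga2. With 1 library per group, neighbours in these orders cannot be judged against a spread.

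Itgb1 (chromosome 8, 131209553 to 131257479), the beta chain shared by most matrix receptors, was the most abundant member in all 4 libraries. It was at 240.4 FPKM in bulk cells against 117 FPKM in mammospheres (log2 change −1.03), and the authors' deposited table gives q = 0.387. This change stood at the 2-fold limit and came to −0.82 after centring and to −0.72 with equal upper quartiles. Between hairpins Itgb1 was at 201 FPKM with the control hairpin against 269 FPKM with sh68, 1.34-fold higher (log2 change 0.42), and the authors' deposited table gives q = 0.999. Of all measured rows, 5.25% had a change as high or higher. The 5 alpha members summed to 272 FPKM in bulk cells and 199 in mammospheres, so that the ratio of Itgb1 to this sum was 0.883 and 0.588. It was 0.529 with the control hairpin and 0.623 in the knockdown library.

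Itgav (chromosome 2, 83564553 to 83647073), the alpha chain of RGD receptors, was at 44.5 FPKM in bulk cells against 40.4 FPKM in mammospheres. Its log2 change of −0.14 turned to 0.07 after centring and 0.17 with equal upper quartiles, so no direction is given. With the control hairpin and sh68 it was at 111 and 129.5 FPKM (log2 change 0.22).

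Itgav also pairs with Itgb1, described above. Its other beta partners differed in opposite directions. Itgb5 (chromosome 16, 33829750 to 33949424), a vitronectin receptor chain, was at 63.1 FPKM in bulk cells against 11.0 FPKM in mammospheres, the lowest log2 change of any member (−2.41), and the authors' deposited table gives q = 8.48e-05. Of all measured rows, 3.86% were as low or lower. Itgb3 (chromosome 11, 104469313 to 104531785), the CD61 chain, was at 9.30 FPKM in bulk cells against 17.9 FPKM in mammospheres, the highest log2 change of any member (0.87). The authors did not test this row. Its change passed 2-fold after centring (1.08) and with equal upper quartiles (1.18), and 4.67% of rows had a change as high or higher.

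Itgb6 (chromosome 2, 60436348 to 60560660), an epithelial chain whose receptor activates latent TGF-beta, was at 0.117 FPKM in bulk cells and listed at 0 in mammospheres. Itgb8, which also pairs with Itgav, was at 0.139 FPKM and listed at 0. Within a library the share of each partner does not depend on scaling. Of the summed FPKM of Itgb3, Itgb5, Itgb6 and Itgb8, Itgb5 held 86.8% in bulk cells and 38.2% in mammospheres, and Itgb3 held 12.8% and 61.8%. The ratio of Itgb5 to Itgb3 was 6.78 in bulk cells and 0.619 in mammospheres.

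Between hairpins Itgb5 was the measured member that differed most. It was at 36.0 FPKM with the control hairpin against 50.5 FPKM with sh68, 1.403-fold higher (log2 change 0.48). Its q was 0.999 in the authors' deposited table, and 3.72% of measured rows had a change as high or higher. Itgb3 was at 5.85 and 5.52 FPKM (log2 change −0.07). Itgb5 held 86.0% of the Itgb3 and Itgb5 sum with the control hairpin and 90.1% in the knockdown library, and Itgb3 held 14.0% and 9.86%. Both shRNA libraries, read from a separately made table, had Itgb5 above Itgb3, as the bulk library did, and Itgb1 above both. In the Itga5 share of the alpha members the shRNA libraries (12.1% and 12.4%) lay nearer mammospheres (14.4%) than bulk cells (44.5%).

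**Figure D2:**
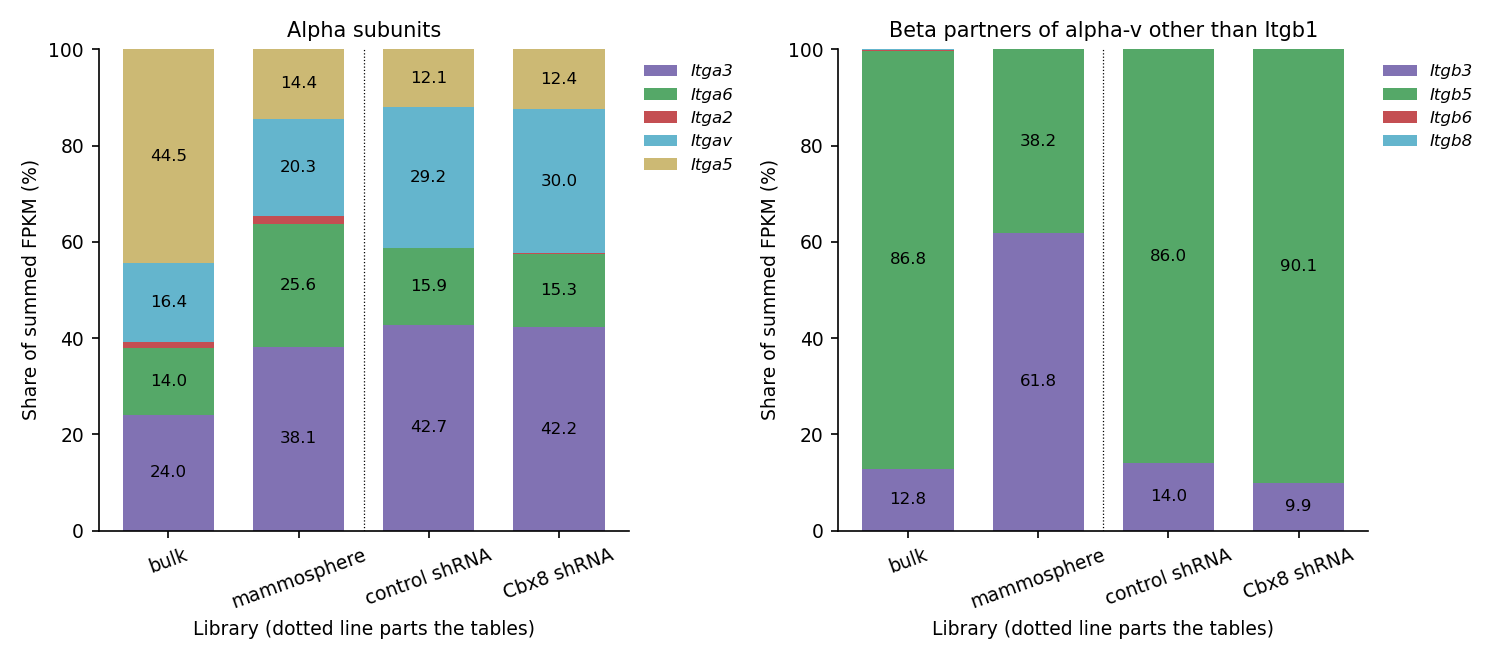
Share in percent of the summed FPKM of the 5 alpha members (left) and of the beta partners of Itgav other than Itgb1 (right) in each library, with the dotted line parting the separately normalized tables. Itga5 takes 44.5% of the alpha sum in bulk cells and 14.4% in mammospheres, and Itgb3 exceeds Itgb5 in the mammosphere library alone of the 4.

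The laminin receptor chains Itga3 and Itga6 had slightly higher values in mammospheres, whereas those of Itgb4 and of Itga7, given further on, were lower. Itga3 (chromosome 11, 94905795 to 94938028) had 65.3 FPKM in bulk cells against 75.8 FPKM in mammospheres (log2 change 0.21). Itga6 (chromosome 2, 71625139 to 71694815), the CD49f chain, was at 38.1 and 50.9 FPKM (log2 change 0.41). Their q values in the authors' deposited table were 0.951 and 0.809. Both changes stayed positive under each pseudocount and scaling tried.

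Between hairpins Itga3 was at 162 FPKM with the control hairpin against 182 FPKM with sh68 (log2 change 0.17). Itga6 was at 60.5 and 65.8 FPKM (log2 change 0.12). Together Itga3 and Itga6 held 38.0% of the alpha sum in bulk cells and 63.7% in mammospheres, whereas Itga5 held 44.5% and 14.4%. In the control and knockdown libraries the laminin pair held 58.6% and 57.5%, and Itga5 held 12.1% and 12.4%. The alpha composition thus differed between bulk cells and mammospheres and was near level between hairpins.

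Itgb4 (chromosome 11, 115836038 to 115874033), the hemidesmosome partner of Itga6, was at 1.35 FPKM in bulk cells against 0.0529 FPKM in mammospheres, with status not tested. The plain ratio was 25.5, but the log2 change was −1.16 with 1 FPKM added and −0.33 with 5 FPKM added. Itga6 stood 28.2-fold above Itgb4 in bulk cells and 962-fold above it in mammospheres. The locus of Itgb4 overlaps that of Galk1, at 63.7 and 88.1 FPKM, and reads from the overlap may be shared. It was the only member whose locus overlapped another row in either table.

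Of the other hemidesmosome genes, the plakin Plec was at 49.4 FPKM in bulk against 40.5 in mammospheres, the plakin Dst at 23.4 and 24.6, and the tetraspanin Cd151, which binds laminin receptors, at 201 and 129.6. None of these 3 measured genes reached 2-fold, beside 17.3% lower and 3.54% higher among all measured rows, and Col17a1 stayed under 1 FPKM. In the knockdown comparison Cd151 was at 162 and 231 FPKM (log2 change 0.51), Plec at 70.0 and 71.8 and Dst at 17.9 and 16.8.

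Itga2 (chromosome 13, 115626119 to 115722249), the collagen receptor chain, was low and level, at 3.23 FPKM in bulk cells against 3.24 FPKM in mammospheres. In the knockdown table it was at 0.340 FPKM with the control hairpin against 0.705 FPKM with sh68, under the 1 FPKM minimum in both.

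Between hairpins the measured members differed little. Of 7 measured, 0 were 2-fold lower and 0 were 2-fold higher, against 0.449% and 0.299% of all measured rows. Of the 7, 6 had positive log2 changes (0.12 to 0.48) and Itgb3 had a negative one, and 48.8% of all measured rows were positive. These signs held after centring and with equal upper quartiles. The median over the 7 was 0.22, against −0.006 over all measured rows. In the authors' deposited table each of the 8 listed members had q = 0.999, with the lowest p at Itgb5 (0.0684).

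**Figure D3:**
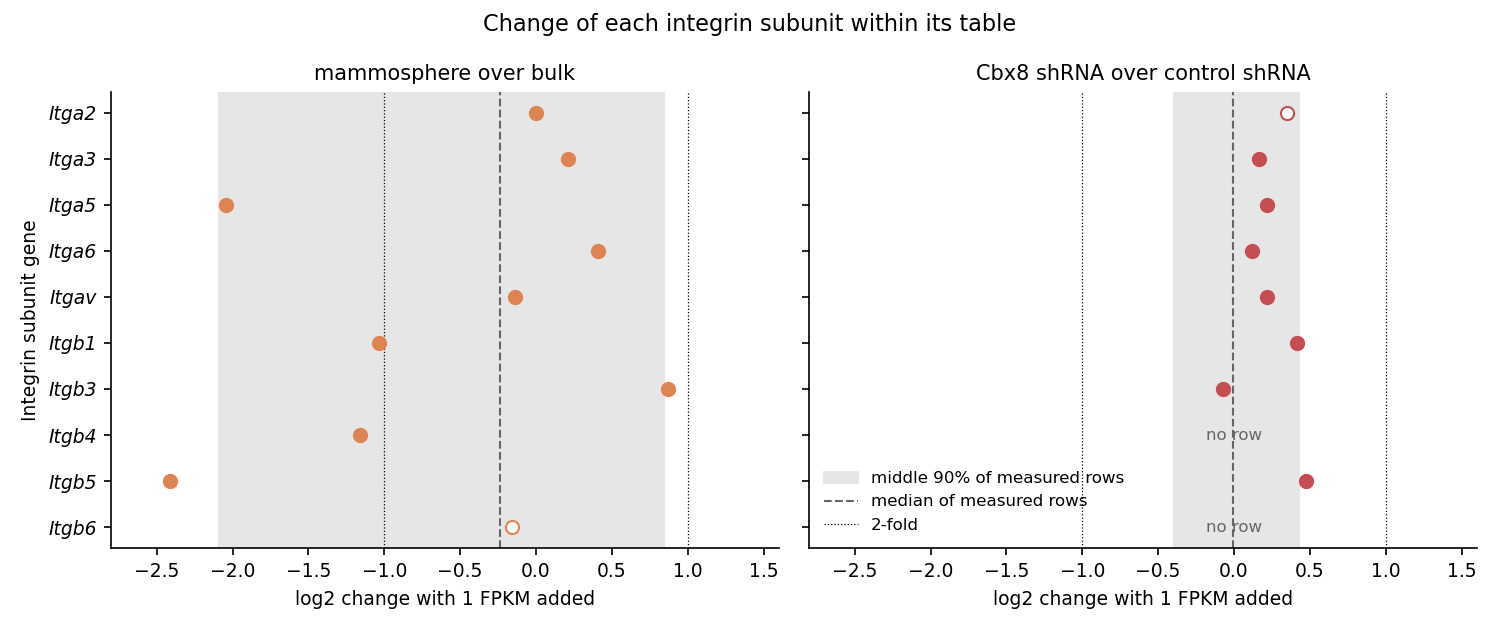
Log2 change of each integrin subunit with 1 FPKM added, mammosphere over bulk (left) and Cbx8 shRNA over control shRNA (right). The grey band spans the middle 90% of measured rows, the dashed line is their median, dotted lines mark 2-fold and open symbols are members under 1 FPKM in both libraries. Itgb5 lies below the band on the left and just above it on the right, and Itgb3 lies just above the band on the left.

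The 17 other integrin subunits were read the same way, 7 of them measured in the mammosphere table and 3 in the knockdown table. The leukocyte beta chain Itgb2 was at 13.7 FPKM in bulk cells against 60.3 FPKM in mammospheres (log2 change 2.06), and the authors' deposited table gives q = 0.00239. Its alpha partners were low and lower in mammospheres. Itgam was at 5.79 and 0.604 FPKM, Itgax at 2.14 and 0.340, and Itgal at 2.64 FPKM and listed at 0. With Itgad they summed to 10.8 FPKM in bulk cells and 0.979 in mammospheres. Itgb2 was at 66.3 and 69.7 FPKM in the control and knockdown libraries, where Itgam alone of these partners had a row, at 0.278 and 0.123 FPKM.

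Itgb7, the beta chain of lymphocyte homing receptors, had 40.9 FPKM in bulk and 53.4 in mammospheres, and 106 and 118 FPKM under the control hairpin and sh68. Its alpha partners Itga4 and Itgae summed to 1.06 and 0.0553 FPKM in those first 2 libraries and had no row in the knockdown table. The platelet chain Itga2b was at 2.09 and 0.302 FPKM in bulk cells and mammospheres. The laminin receptor chain Itga7 was at 4.98 and 0.959 FPKM, and at 4.07 and 3.03 FPKM in the control and knockdown libraries. Itgb2 and Itgb7 were the most abundant of the 17 in all 4 libraries.

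Many matrix ligands of the receptors were lower in mammospheres. Of 22 measured ligand genes, 13 were at least 2-fold lower and 0 higher, beside 17.3% and 3.54% of all measured rows. Their median was −1.12, beside −0.24 over all measured rows. The fibrillar collagens in this list are also fibroblast markers, whose summed level is given above, and the part of fibroblasts in the ligand values was not tested. The matricellular proteins Ctgf (291 and 0.0405 FPKM) and Cyr61 (1592 and 6.68), both ligands of Itgav receptors, and the fibrillar collagens Col3a1 (128 and 0.0623) and Col1a1 (97.7 and 0.0589) had the lowest changes. The next genes were chosen after their values were seen, for their receptors among the members. Fibronectin, Fn1, the ligand of the Itga5 receptor, was at 124 FPKM in bulk against 6.61 in mammospheres (log2 change −4.04). The chains of laminin-511, the ligand of the Itga3 and Itga6 receptors, were nearer level, with Lama5 at 139.5 and 109 FPKM, Lamb1 at 121 and 87.0, and Lamc1 at 71.7 and 78.2. Osteopontin, Spp1, a ligand of Itgb3 receptors, was at 237 and 421 FPKM. Spp1 went against most of the list, in which 19 measured genes had negative changes and 3 had positive ones. In the same list Thbs1 was at 225 and 1.98 FPKM, and Tnc at 11.3 and 0.891.

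In the knockdown comparison 2 of 17 measured ligand genes were 2-fold higher and 0 lower, beside 0.299% and 0.449% of all measured rows, with a median of 0.31. Lamb3, a chain of the epithelial laminin, was at 1.97 FPKM with the control hairpin against 5.81 with sh68, and Cyr61 at 113 and 231. The authors' deposited table gives q = 0.0915 for Lamb3 and q = 0.0488 for Cyr61. Ctgf was at 27.1 and 53.7 FPKM and Col3a1 at 2.33 and 0.675. Among the genes chosen afterwards, Fn1 was at 30.8 and 40.2 FPKM and Spp1 at 428 and 231.

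Of 7 genes of latent TGF-beta, the complex that Itgav receptors open, 5 were at least 2-fold lower in mammospheres and 0 higher (17.3% and 3.54% of all measured rows), and the median was −1.56. The binding proteins Ltbp4 (26.5 and 5.69 FPKM), Ltbp2 (2.93 and 0.0247) and Ltbp1 (37.7 and 12.1) and the ligand Tgfb2 (2.20 and 0.0429) had the lowest changes. Of the 6 with a row in the knockdown table none passed 2-fold, beside 0.449% lower and 0.299% higher among all measured rows. Ltbp1 was at 20.8 and 28.3 FPKM there and Ltbp3 at 71.4 and 93.5.

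Among 35 measured activators and adaptors, 8 were at least 2-fold lower and 1 higher in mammospheres, with a median of −0.52. These counts lie near the 17.3% and 3.54% of all measured rows. The docking protein Nedd9 was at 48.4 FPKM in bulk against 0.955 in mammospheres. Zyx, a focal adhesion LIM protein, was at 251 and 82.9 FPKM. The haematopoietic kindlin Fermt3 (6.27 and 0.689) and parvin Parvg (2.03 and 0.0562) were lower, as were 13 of 14 measured leukocyte markers, whose part was not tested. The higher gene, chosen after its value was seen, was the guanine nucleotide exchange factor Arhgef7, at 17.2 and 38.9 FPKM. Of 34 measured in the knockdown comparison none passed 2-fold, beside 0.449% lower and 0.299% higher among all measured rows. Of the 34, 24 were positive (median 0.14), beside 48.8% of all measured rows. The actin crosslinker Flna was at 157 and 244 FPKM, Zyx at 262 and 377, the kinase Fyn at 10.3 and 14.3 and the tensin Tns1 at 11.8 and 5.45.

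Endocytosis and recycling factors were mostly level. Of 9 measured, 1 was 2-fold lower in mammospheres, the Rab11 effector Rab11fip1 at 15.8 FPKM in bulk against 3.62 in mammospheres, and 0 were higher (median −0.32), which is near the 17.3% lower and 3.54% higher over all measured rows. Rab11a itself was at 51.6 and 84.4 FPKM, the recycling GTPase Rab4a at 5.90 and 8.60 and the endocytic adaptor Dab2 at 10.7 and 5.25. In the knockdown comparison all 9 lay between −0.26 and 0.18 on the log2 scale.

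**Figure D4:**
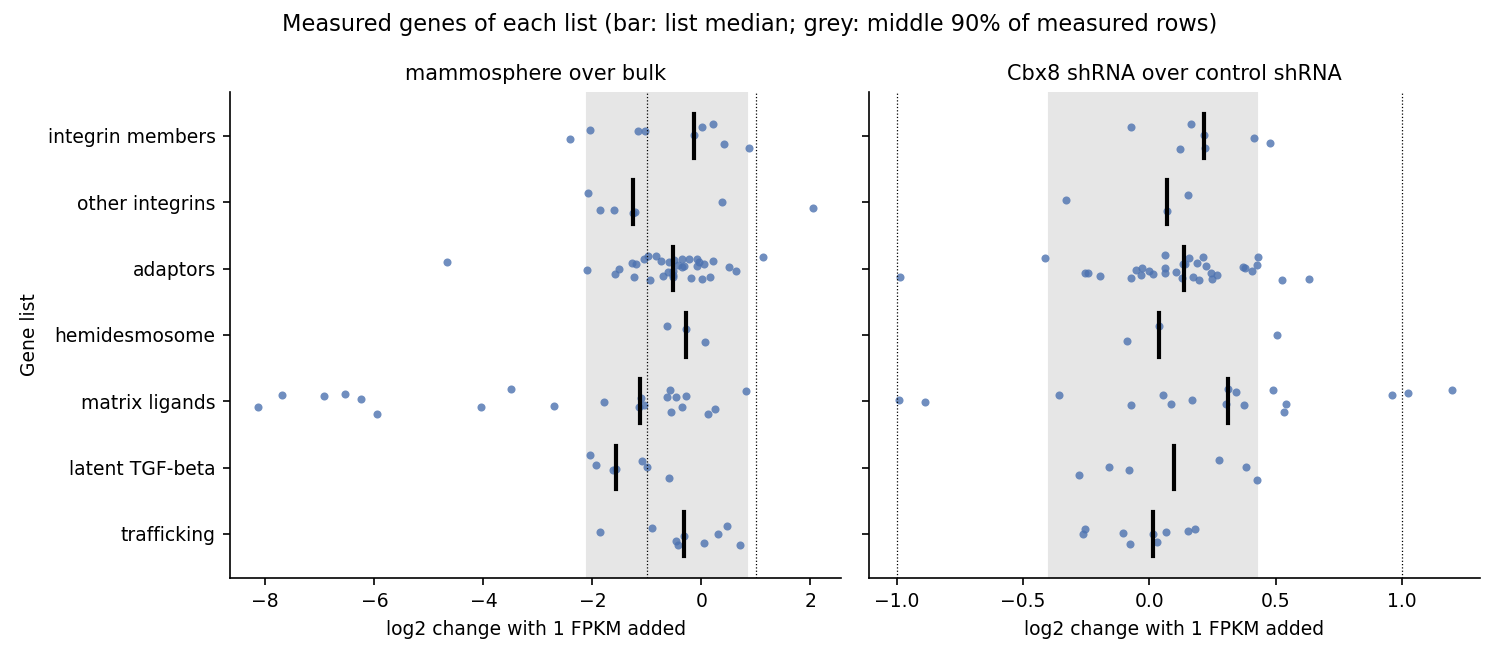
Log2 change with 1 FPKM added of every measured gene of the integrin members and the lists around them, mammosphere over bulk (left) and Cbx8 shRNA over control shRNA (right, on a narrower axis). Each point is 1 gene, the bar is the list median, the grey band spans the middle 90% of measured rows and dotted lines mark 2-fold. Matrix ligands reach far below the band in mammospheres, and the integrin members spread from −2.41 to 0.87.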

How the data were processed

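Polyadenylated RNA (RNA integrity number of 8 or higher) was sequenced as 100 nt single-end reads, per the labels' protocols. The submitters' processing notes name FastQC 0.10.0, TopHat 1.4.0, Cufflinks 1.3.0, Cuffdiff (version listed as 0.0.7) and build mm9, without settings. The authors deposited 2 Cuffdiff tables of FPKM, with a p-value and q-value of their own per row, per the file headers. Strand use and the assignment of reads that map to several places are stated in none of the sources used here. The files hold no counts, so sequencing depth is unknown and no counting interval was computed.

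Rows were matched by symbol. Of the rows of the mammosphere table, 4045 had status OK and 18363 were not tested by the authors, and all 11708 rows of the knockdown table had status OK. The knockdown table lists no row at 0, so silent genes may be missing from it. Log2 ratios used a pseudocount of 1 FPKM, a minimum of 1 FPKM in either library and a fold limit of 2. With 1 library per group no p-value was computed. The counting step was tested on simulated libraries without noise, with changes beyond the fold limit set in advance. This checks its arithmetic and not the calls in real single libraries. Partner shares were computed from FPKM within a library. Named genes were all members, the other integrins at 1 FPKM or more, and up to 4 genes per list with the largest absolute change. Outside this rule, markers listed at 0, Cd68, Epcam, Cdh1 and other genes marked in the text were chosen with their values seen. The members and lists were chosen with earlier results of these data known. Alternatives were other pseudocounts, minimums and fold limits, centring, equal upper quartiles, summed rows and rows of status OK. Promoter sequences are from RefSeq (GRCm38.p6) and were not mixed with mm9 coordinates. Computation used Python 3.11.15, pandas 2.3.3 and numpy 2.4.6.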

Additional observations from a re-analysis of the deposited data

How the results depend on the processing

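No paired analysis was possible because each group is 1 library and the labels give no replicate numbers, and no library could be left out. In the mammosphere comparison the 4 lower and 0 higher members became 2 lower and 1 higher after centring on −0.21, the median plain log2 ratio of rows at 1 FPKM or more in both libraries. With equal upper quartiles (scaling of 0.32 in log2) 3 members were lower and 1 higher (13.5% and 7.08% of rows). A fold limit of 1.5 gave 4 lower and 1 higher (30.7% and 9.86% of rows), and a limit of 4 gave 2 lower and 0 higher (5.54% and 0.526%). With 0.1 FPKM added 4 were lower and 0 higher (20.7% and 5.76% of rows), and with 5 FPKM added 3 and 0 (8.27% and 1.23%). Among rows of status OK 3 were lower and 0 higher (16.2% and 3.73% of such rows). Other minimums and summed rows gave 3 or 4 lower and 0 higher, and the share of all rows was not computed for these. Between hairpins 0 measured members passed the fold limit, down to 1.5, under the alternatives run. At a limit of 1.5, 2.18% of all measured rows were lower and 2.10% higher.

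Over the 5 lists of adaptors, hemidesmosome, ligands, latent TGF-beta and trafficking, 27 of 76 genes were lower and 1 higher in mammospheres, beside 17.3% and 3.54% of all measured rows. With 5 FPKM added 17 were lower and 0 higher (8.27% and 1.23% of rows), and after centring 21 were lower and 2 higher (13.0% and 5.98%). Between hairpins 0 of 69 were lower and 2 higher (0.449% and 0.299% of rows), with 2 lower when 0.1 FPKM was added (1.07%) and 0 higher when 5 FPKM was added (0.131%). A larger pseudocount shrinks the log2 change of low genes by construction. Summing over all listed alpha partners of Itgb1, a choice made after the data were seen, moved the Itga5 share to 43.3% in bulk cells and 14.2% in mammospheres. The 1.5-fold tolerance used to call a value stable is a convention, since no replicate measures the spread.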
